A study of Mus musculus with 24 samples.

Results

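Oxidative phosphorylation (OXPHOS) subunit genes were followed through neural differentiation of mouse embryonic stem cells (mESCs) with and without SmcHD1. Members were taken by gene symbol, as every listed gene outside the X chromosome whose symbol begins with Nduf, Sdha to Sdhd, Uqcr, Cox4 to Cox8, Atp5 or is Cyc1. The rule found 88 genes of 23119 listed (22028 outside X and Y), and 3 further X-linked genes that it matches were left out because reads on the X had been removed from these tables. Of the 88, 81 encode subunits: 34 of complex I, 4 of complex II, 9 of complex III, 19 of complex IV and 15 of complex V. The other members were the complex I assembly factors Ndufaf1 to Ndufaf4, coupling factor B (Atp5s), and Atp5sl and Cox4nb, which match the symbol rule but are not subunits. Polyadenylated RNA was sequenced from 24 libraries in 8 groups of 3: wild-type (WT) and SmcHD1 knockout (KO) cells, each as mESCs, at day 7, at day 9 and as neural stem cells (NSCs). All groups share the female JB4/EI7HZ2 line, an F1 hybrid of a JF1 mother and a B6 father kept under G418 and zeocin so that both X chromosomes are retained. Day 7 and day 9 cells are early neurectoderm grown as aggregates from epiblast-like cells, whereas NSCs came from a separate protocol and are not descendants of the day 9 cells. WT and KO are 1 line each, the KO made by CRISPR, so genotype and line cannot be told apart. The labels number the replicate libraries without naming cultures, and a legend of the study describes its RNA-seq replicates of this line and its differentiating cells as biologically independent.

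The respiratory chain passes electrons from NADH (complex I) and succinate (complex II) through ubiquinone to complex III, cytochrome c and complex IV, where oxygen is reduced. Complexes I, III and IV pump protons out of the mitochondrial matrix, and complex V, the ATP synthase, lets them flow back to make ATP. Every complex but II also contains subunits encoded by mitochondrial DNA, which are not members here, and several complex IV subunits have tissue-restricted isoforms encoded by separate genes. Pluripotent cells are known for active glycolysis alongside respiration, and mitochondrial activity changes as they leave pluripotency.

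Values are FPKM, read fragments divided by transcript length and by the mapped reads of the library, and so can be compared between genes. FPKM sums per library went from 504660 to 802938, and relative sequencing depth, read from the step size of low values, spanned 0.810 to 1.15. Smchd1 lay between 12.96 and 26.4 FPKM in the 12 WT libraries and between 1.82 and 4.40 in the 12 KO libraries, with no overlap. Stage markers followed the labels: from mESCs to WT NSCs, 7 of 7 pluripotency genes were called lower and 7 of 8 neural stem genes higher. Differences are on the log2(FPKM + 1) scale from limma, fitted over 12105 genes with a mean of at least 1 FPKM, and a gene was called at a Benjamini-Hochberg adjusted p under 0.05. Of the members, 85 passed that minimum; Cox6a2, Cox8b and Cox8c did not. As these are bulk samples, fewer cells of a type and less RNA per cell cannot be told apart.

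OXPHOS subunit genes were among the most abundant transcripts at every stage. In WT mESCs the median of the 78 tested subunits was 262 FPKM, against 11.1 for all tested genes, and 68 to 70 of the 78 lay in the top 10% of tested genes in every group. The highest member was Atp5b, the catalytic beta subunit of the ATP synthase, with a mean of 1004 FPKM over the 24 libraries. In the other complexes the highest means belonged to Cox4i1 of complex IV with 712 FPKM, Uqcrh of complex III with 521, Ndufa7 of complex I with 407 and Sdhc of complex II with 139.5. The lowest were Cox8b, the muscle isoform of subunit 8 (0.146 FPKM), the coupling factor Atp5s (5.98), Ndufaf4 (8.40), the complex III core protein Uqcrc2 (108) and the complex II flavoprotein Sdha (115). The members lie on 18 chromosomes, and their loci are short, with a median span of 7.42 kb against 24.4 kb for all tested genes. Levels split sharply within complex IV. Its 11 ubiquitous subunits had a median of 653 FPKM in WT mESCs and the 8 restricted isoforms a median of 1.75.

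Promoters of the members are shown because the isoform genes described later differ in them. RefSeq promoter windows on GRCm38.p6, reaching from 250 bases before to 50 bases after the start, were matched for 68 of the 88 members (73 starts). They held a median of 19 CpG dinucleotides, against 7 over all 32851 promoters, and a median GC content of 57.7% against 52.7%. The core of the NRF1 site, searched as GCATGCGC or its reverse complement GCGCATGC, was present in 15.1% of the member promoters and in 2.71% of all promoters. That core stood in 11 members, namely Atp5g2, Atp5k, Atp5l, Cox6a1, Ndufa6, Ndufa8, Ndufa11, Ndufaf4, Sdhb, Uqcr11 and Uqcrc1. The ETS core, searched as CCGGAAGT or ACTTCCGG, was present in 6.85% of member promoters (Atp5h, Cox8a, Ndufs3, Uqcr11 and Uqcrh) and in 3.89% of all. A match describes letters only. The lines below give 3 genes for the same c-ring protein (Atp5g1, Atp5g2 and Atp5g3), the complex I member that fell furthest in NSCs (Ndufa11), a stalk gene that differed between genotypes (Atp5h) and a muscle isoform with 7 CpG (Cox7a1), 5′ to 3′ on the strand of the gene, with NRF1 or ETS cores in capitals. Atp5g1 lies at chr11:96075582-96075881 (minus strand), Atp5g2 at chr15:102670998-102671297 (minus), Atp5g3 at chr2:73911277-73911576 (minus), Ndufa11 at chr17:56717512-56717811 (plus), Atp5h at chr11:115419870-115420169 (minus) and Cox7a1 at chr7:30183921-30184220 (plus).
Atp5g1: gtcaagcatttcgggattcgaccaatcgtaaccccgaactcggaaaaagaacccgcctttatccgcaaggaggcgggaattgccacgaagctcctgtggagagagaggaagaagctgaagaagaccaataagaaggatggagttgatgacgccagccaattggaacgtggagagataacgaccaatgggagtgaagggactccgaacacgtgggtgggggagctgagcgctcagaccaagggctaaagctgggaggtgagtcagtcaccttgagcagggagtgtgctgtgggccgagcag
Atp5g2: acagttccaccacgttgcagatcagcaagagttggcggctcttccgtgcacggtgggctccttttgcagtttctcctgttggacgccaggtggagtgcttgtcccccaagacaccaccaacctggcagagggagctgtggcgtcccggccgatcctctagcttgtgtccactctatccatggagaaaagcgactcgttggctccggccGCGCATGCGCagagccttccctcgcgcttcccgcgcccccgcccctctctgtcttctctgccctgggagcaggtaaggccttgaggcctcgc
Atp5g3: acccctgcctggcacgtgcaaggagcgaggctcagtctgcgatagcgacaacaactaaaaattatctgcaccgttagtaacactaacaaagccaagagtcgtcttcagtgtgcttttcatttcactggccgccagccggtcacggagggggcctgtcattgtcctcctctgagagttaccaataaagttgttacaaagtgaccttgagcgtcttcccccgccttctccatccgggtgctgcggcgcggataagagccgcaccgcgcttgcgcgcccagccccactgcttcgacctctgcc
Ndufa11: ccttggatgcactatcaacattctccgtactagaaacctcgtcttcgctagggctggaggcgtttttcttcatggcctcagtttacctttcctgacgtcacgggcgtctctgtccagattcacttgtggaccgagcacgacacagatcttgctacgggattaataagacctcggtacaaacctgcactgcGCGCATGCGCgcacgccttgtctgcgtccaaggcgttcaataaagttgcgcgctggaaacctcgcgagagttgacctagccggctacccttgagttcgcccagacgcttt
Atp5h: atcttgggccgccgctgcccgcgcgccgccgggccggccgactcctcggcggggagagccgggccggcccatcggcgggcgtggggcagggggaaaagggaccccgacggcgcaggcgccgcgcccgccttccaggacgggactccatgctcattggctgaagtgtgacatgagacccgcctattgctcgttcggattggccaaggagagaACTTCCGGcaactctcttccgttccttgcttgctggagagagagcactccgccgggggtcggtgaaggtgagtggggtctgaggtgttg
Cox7a1: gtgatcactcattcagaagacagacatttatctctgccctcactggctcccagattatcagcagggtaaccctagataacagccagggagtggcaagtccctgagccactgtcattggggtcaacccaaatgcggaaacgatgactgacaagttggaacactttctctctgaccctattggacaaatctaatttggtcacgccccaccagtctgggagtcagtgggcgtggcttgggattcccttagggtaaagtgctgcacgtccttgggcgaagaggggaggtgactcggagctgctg
In Atp5g2 and Ndufa11 both orientations of the NRF1 core overlap in 1 run of capitals, which began 42 bases before the start in Atp5g2 and 60 bases before it in Ndufa11, and the ETS core 39 bases before it in Atp5h. Neither core was found in the windows of Atp5g1, Atp5g3 and Cox7a1. Of the restricted complex IV isoforms, 4 had a window, with 10 CpG in Cox6b2 and in Cox7b2, 7 in Cox7a1 and 2 in Cox8b.

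The question for the WT line was how the OXPHOS genes change between mESCs and differentiating cells. Most members fell by day 7 and stayed low at day 9. From WT mESCs to day 7, 60 of the 85 tested members were called lower and 3 higher, where 30.2% of all tested genes were called lower and 29.1% higher. From WT mESCs to day 9, 61 were called lower and 4 higher, against 35.1% and 36.4% of all tested genes. The members' median log2 change was -0.45 at day 7 and -0.53 at day 9, with -0.02 and 0.01 over all tested genes. Total FPKM differed between the stages, and scaling every library to the same FPKM sum moved the median of all genes to 0.18 and 0.34. On that scale 39 members were called lower and 9 higher at day 7, against 18.4% and 36.4% of all tested genes, and 32 lower and 15 higher at day 9, against 21.6% and 48.3%. The members' medians were then 0.39 and 0.49 below those of all genes. The summed level of the 81 subunits went from 26501 ± 1648 FPKM in WT mESCs to 18394 ± 1909 at day 7 and 17428 ± 755 at day 9 (SD, n = 3). As a share of all FPKM, the subunits made up 3.48%, 2.84% and 2.98%.

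**Figure D1:**
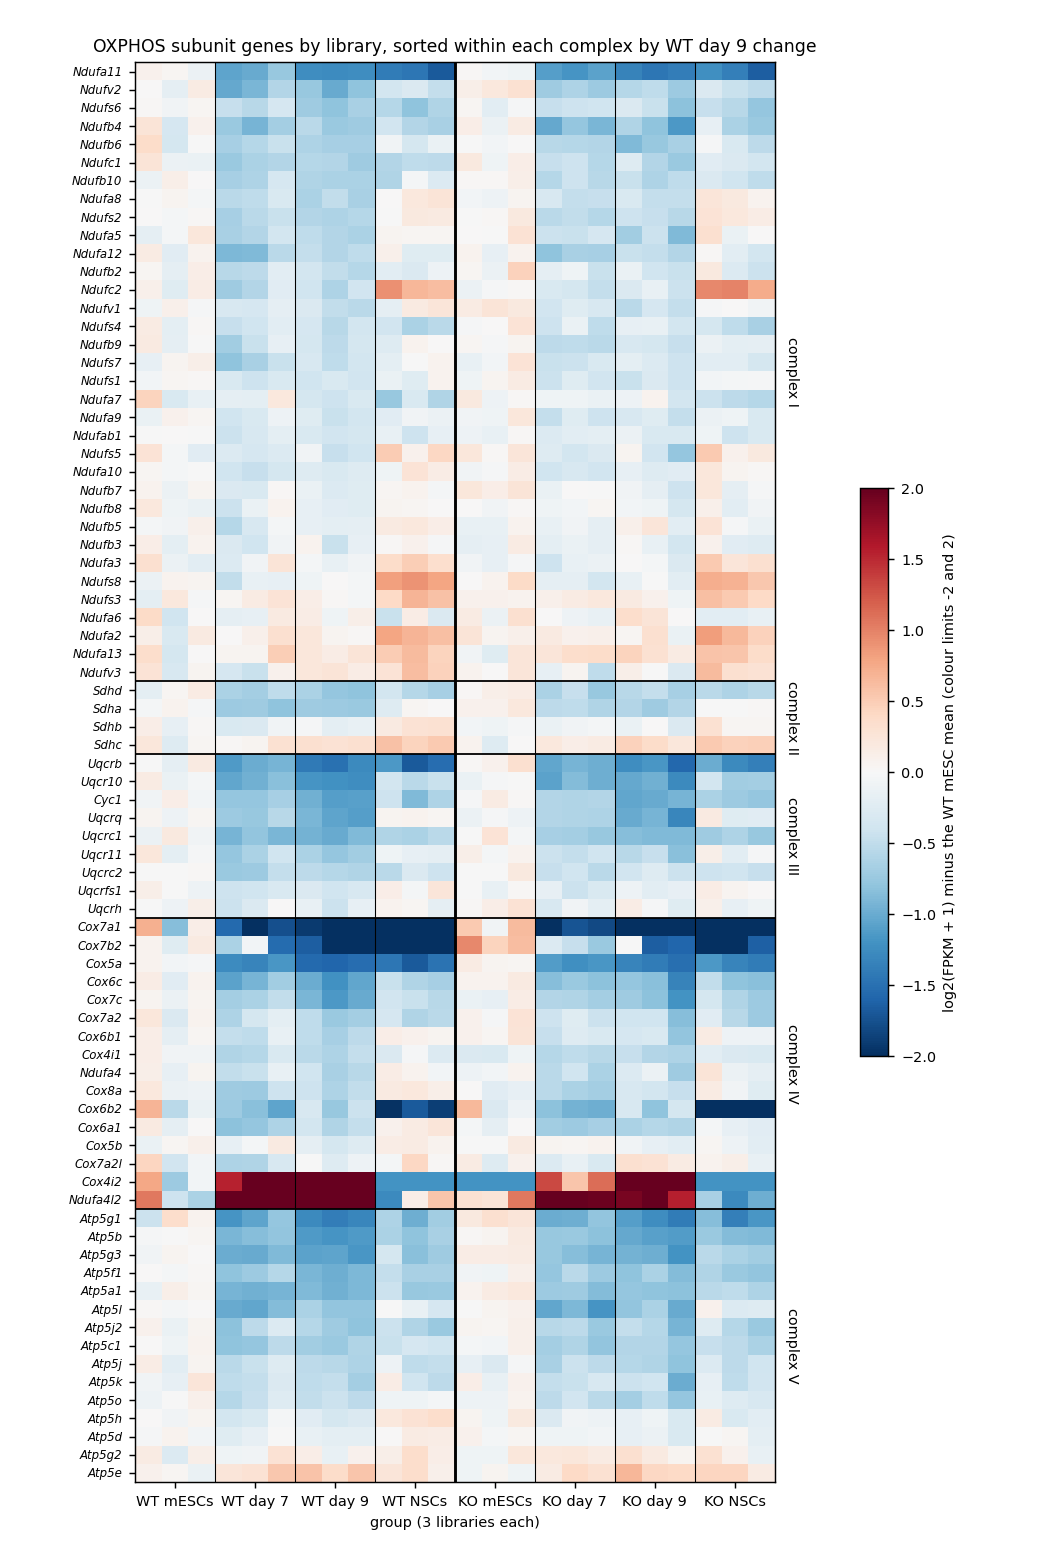
Level of each tested OXPHOS subunit gene in each of the 24 libraries, as log2(FPKM + 1) minus the mean of the WT mESC libraries (colour, limits -2 and 2), with genes in lines grouped by complex and libraries in columns grouped by genotype and stage. Most lines are blue at day 7 and day 9 in both genotypes, while Cox4i2 and Ndufa4l2 are red there and Cox7a1 is darkest in NSCs.

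Complex III carried the largest median fall at day 9, followed by the ATP synthase. At day 9, 8 of the 9 complex III genes were called lower (median log2 change -0.95), 12 of 15 in complex V (-0.68), 12 of 16 in complex IV (-0.54), 22 of 34 in complex I (-0.38) and 2 of 4 in complex II (-0.42). Members called higher at day 9 numbered 2 in complex IV, 1 in complex II, 1 in complex V and 0 in complexes I and III. Of the 4 complex I assembly factors, 3 were called lower. Cox5a, a nuclear-encoded accessory subunit of complex IV with a single gene, showed the fall clearly. It stood at 769.8, 709.7 and 725 FPKM in WT mESCs, at 308, 293 and 329 by day 7, and at 249, 245 and 256 by day 9. Its day 9 libraries all lay below every mESC library, and the log2 change was -1.55 ± 0.09 (SE, limma adjusted p = 6.43e-13). Uqcrb, a small complex III subunit next to the ubiquinone site, stood at 622, 552 and 707 FPKM in WT mESCs and at 233, 221 and 258 at day 9. These groups did not overlap either, with a log2 change of -1.39 ± 0.14 (SE, limma adjusted p = 8.14e-09). Atp5b went from 1493, 1501 and 1547 FPKM to 689, 669.5 and 691, again without overlap, and fell by 1.15 on the log2 scale (limma adjusted p = 1.09e-11).

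Other subunits were not called lower at day 9. Atp5e, the epsilon subunit of the F1 head and chosen here after its values were seen, stood at 293, 281 and 252 FPKM in WT mESCs and at 410.1, 353 and 402 at day 9. All its day 9 libraries were the higher ones, and it rose by 0.49 ± 0.11 (SE, limma adjusted p = 0.00036). Ndufs8, an iron-sulfur subunit of the catalytic arm of complex I, stood at 62.3, 71.1 and 70.6 FPKM in mESCs and 64.0, 68.2 and 65.9 at day 9. Those ranges overlapped (log2 change -0.04 ± 0.11, limma adjusted p = 0.758). At day 7, however, it stood at 47.7, 61.3 and 60.4 FPKM and was called lower (log2 change -0.27, limma adjusted p = 0.0361), a call lost after scaling to the same FPKM sum (-0.036, 0.782), with the compared groups fitted alone (-0.27, 0.109), and without WT mESC replicate 2 (-0.24, 0.104) or 3 (-0.24, 0.104) or WT day 7 replicate 1 (-0.16, 0.241).

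**Figure D2:**
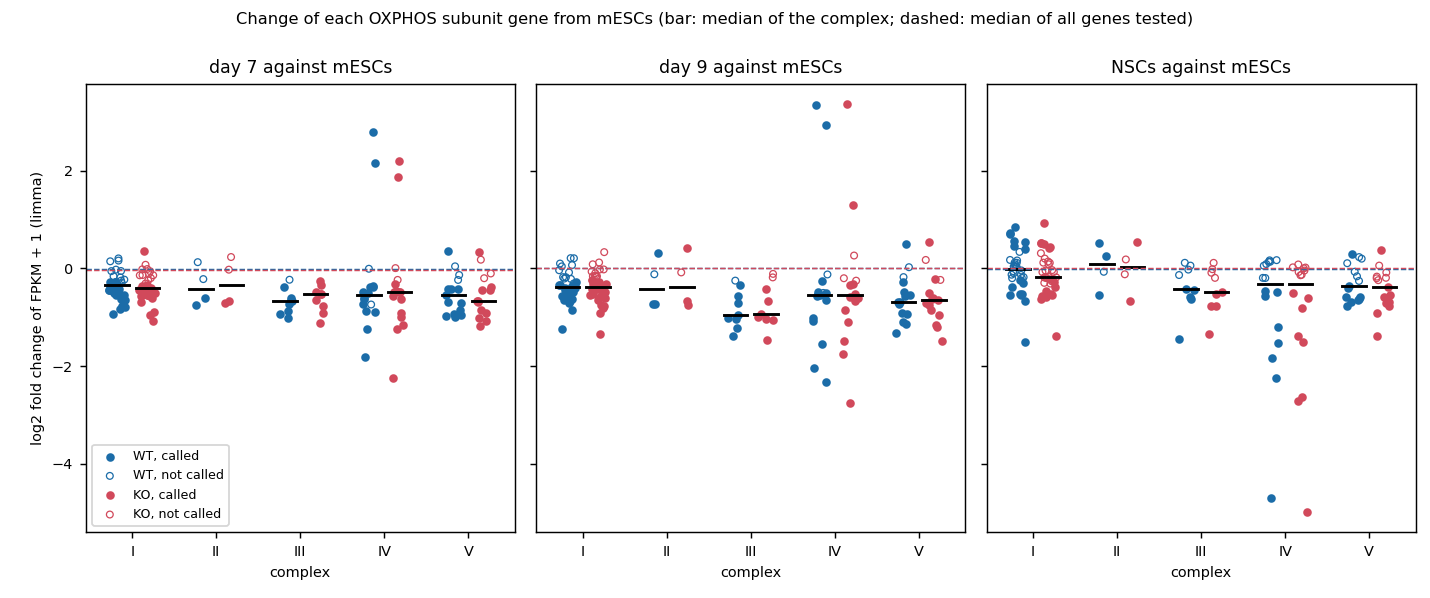
Log2 fold change of FPKM + 1 from mESCs (limma, y axis) for each tested subunit gene by complex (x axis), WT in blue and KO in red, at day 7, day 9 and in NSCs; filled points were called at adjusted p under 0.05, bars are medians of a complex and dashed lines the median of all tested genes. Complexes III and V sit below the dashed line at day 9 with medians of -0.95 and -0.68 in WT, and the medians of NSCs lie nearer to it, where scaling to equal FPKM sums turns the members' median positive.

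In NSCs the picture was mixed, and its direction depended on scaling. From WT mESCs to WT NSCs, 36 members were called lower and 10 higher, where 38.3% of all tested genes were called lower and 36.9% higher, with a median log2 change of -0.16 against -0.01 for all genes. After scaling to the same FPKM sum, 13 were called lower and 44 higher with a median of 0.29, but the median of all genes had then moved to 0.36, with 25.3% of all tested genes called lower and 49.6% higher. The subunits summed to 22776 ± 658 FPKM in WT NSCs (SD, n = 3), below mESCs, while their share of all FPKM, 4.09%, was above the 3.48% of mESCs. By complex, 9 of 34 complex I genes were called lower and 7 higher, 5 of 9 lower and 0 higher in complex III, 8 of 16 lower and 0 higher in complex IV, and 8 of 15 lower and 1 higher in complex V. In complex II, 1 of 4 was called lower and 2 higher.

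Complex I held both extremes among its own genes. Ndufs8 showed the largest rise by WT NSCs, where it stood at 121, 127 and 118 FPKM, above all mESC libraries (log2 change 0.84 ± 0.11, SE, limma adjusted p = 3.93e-07). Ndufa11, an accessory subunit of the membrane arm, showed the largest fall, from 49.3, 47.4 and 42.5 FPKM in WT mESCs to 16.9, 16.3 and 13.8 in WT NSCs. No NSC library reached the mESC range (log2 change -1.51 ± 0.11, SE, limma adjusted p = 2.29e-11). The promoter window of Ndufa11, printed above, carries the NRF1 core. In complex III the largest called fall was that of Uqcrb, to 282, 195 and 216 FPKM (log2 change -1.45 ± 0.14, SE, limma adjusted p = 3.25e-09). In complex V the subunit with the largest called rise was Atp5h of the peripheral stalk, from 526, 502 and 547 FPKM to 608, 642 and 671, all above the mESC libraries (log2 change 0.28, limma adjusted p = 0.0277). That call was lost without WT mESC replicate 2 (0.25, adjusted p = 0.0816), WT NSC replicate 2 (0.28, 0.0551) or WT NSC replicate 3 (0.25, 0.0866), and with the compared groups fitted alone (0.28, 0.0539). Among the 4 Ndufaf assembly factors Ndufaf1 showed the largest called fall, a log2 change of -0.93. Cox5a likewise stayed low in NSCs, at 269, 228 and 262 FPKM, all below the mESC libraries.

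NSCs and day 9 cells were compared as well, a contrast added after the data were seen. Members were mostly higher in NSCs. In WT, 45 members were called higher and 7 lower, where 24.8% of all tested genes were called higher and 30.3% lower, and the members' median log2 difference was 0.29 against -0.06. The direction held after scaling to the same FPKM sum, with 59 called higher and 5 lower against 27.3% and 26.8% of all tested genes. All 7 nuclear core subunits of complex I were called higher, as were 12 of its 27 accessory subunits, 6 of 9 complex III genes, 8 of the 11 ubiquitous complex IV subunits and 10 of 15 complex V genes. For the restricted complex IV isoforms no count is given, because the filter on low values left out Cox6a2 and Cox8b, whose highest library was in NSCs. Ndufc2, a membrane-arm subunit of complex I picked after its values were seen, stood at 178, 153 and 180.5 FPKM at WT day 9 and at 444, 373 and 361 in WT NSCs. Its groups were far apart (log2 difference 1.20 ± 0.13, SE, limma adjusted p = 4.95e-08). Uqcrq, a small complex III subunit picked in the same way, went from 227, 206 and 198.5 to 447, 450.1 and 439 FPKM, back within the mESC range of 401 to 445 in 1 of 3 libraries and slightly above it in the others.

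The tissue-restricted isoforms of complex IV changed with stage. Cox7a1, the heart and skeletal muscle isoform of subunit 7a (mm9 chr7:30969190-30971049), stood at 127.5, 42.4 and 85.3 FPKM in WT mESCs. It was down to 25.6, 17.3 and 22.2 by day 7, to 19.8, 16.03 and 9.79 by day 9, and to 0, 3.26 and 5.38 FPKM in the NSC libraries. No NSC library overlapped another stage, and the mESC libraries spread widely among themselves. The log2 change was -2.33 ± 0.52 at day 9 (SE, limma adjusted p = 0.00071) and -4.70 ± 0.52 in NSCs (adjusted p = 2.19e-07). Within the set Cox7a1, Cox7a2 and Cox7a2l, its share of summed FPKM went from 12.99% in WT mESCs to 3.56% at day 9 and 0.601% in NSCs. Cox6b2, the testis isoform of subunit 6b, stood at 121, 51.5 and 68.6 FPKM in WT mESCs, 60.0, 44.1 and 55.7 at day 9, falling to 18.4, 22.8 and 19.8 among NSCs. The mESC and day 9 ranges overlapped, while NSCs lay below both (log2 change from mESCs -1.85 ± 0.24, SE, limma adjusted p = 7.55e-07). Its share of the Cox6b pair was 10.1% in WT mESCs and 2.69% in NSCs.

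Most ubiquitous subunits of complex IV were called lower at WT day 9. Cox4i1, which docks on the catalytic core of complex IV, fell by 0.54 on the log2 scale to WT day 9, and its change to NSCs was -0.20 (not called). Cox6a1, Cox6b1, Cox8a and Ndufa4 were likewise called lower at WT day 9, with log2 changes between -0.57 and -0.48, and were not called in NSCs, with changes between 0.05 and 0.17. Calls of these 5 genes at day 9 were lost after scaling to the same FPKM sum, with changes still between -0.19 and -0.10. Cox6c (-1.08 at day 9 and -0.57 in NSCs) and Cox7a2 (-0.65 and -0.49) were called lower in both, the NSC calls being lost after scaling (-0.12, limma adjusted p = 0.263, and -0.044, 0.743). Cox7a2l, a factor that joins complexes III and IV into supercomplexes, was called in neither (-0.13 and 0.14). Cox5b, a zinc-binding subunit, was called lower at day 9 (-0.26), a call lost without WT mESC replicate 3 (-0.22, limma adjusted p = 0.0796) or WT day 9 replicate 2 (-0.22, 0.0773) and a change that turned to 0.11 after scaling.

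Cox4i2 and Ndufa4l2 formed the opposite pattern, with a peak at day 9 in WT. Both encode alternative forms of complex IV components known to be induced by low oxygen, Cox4i2 in place of Cox4i1 and Ndufa4l2 as a paralog of Ndufa4. Cox4i2 (mm9 chr2:152579909-152590773) stood at 2.93, 0.390 and 1.21 FPKM in WT mESCs. By day 7 it had reached 5.68, 8.88 and 15.5 FPKM and by day 9 14.7, 16.7 and 18.4, and it was listed at 0 in all 3 WT and all 3 KO NSC libraries. Day 9 lay above every mESC library (log2 change 2.93 ± 0.29, SE, limma adjusted p = 8.14e-09). Even then it made up only 2.62% of the summed FPKM of Cox4i1 and Cox4i2. Ndufa4l2 (mm9 chr10:126951995-126959500) stood at 4.04, 0.809 and 0.559 FPKM in WT mESCs, rising to 13.9, 14.4 and 19.4 by day 7 and 18.7, 26.5 and 26.8 by day 9. The NSC libraries gave 0, 1.65 and 2.56 FPKM. Its day 7 and day 9 libraries were all above those of mESCs and NSCs (log2 change at day 9 3.35 ± 0.41, SE, limma adjusted p = 3.41e-07). In KO, Ndufa4l2 was instead highest at day 7, with 13.96, 13.95 and 8.46 FPKM, against 8.03, 8.78 and 6.14 at day 9. Its locus overlaps Shmt2 in these tables, so reads could be split between them. A list of 12 tested hypoxia-response genes moved along the same stages, with 9 called higher and 0 lower at WT day 9 (median log2 change 1.70), against 36.4% and 35.1% of all tested genes, and 0 higher and 10 lower in WT NSCs against day 9, where 24.8% and 30.3% of all tested genes were. Whether it bears on Cox4i2 or Ndufa4l2 was not tested.

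**Figure D3:**
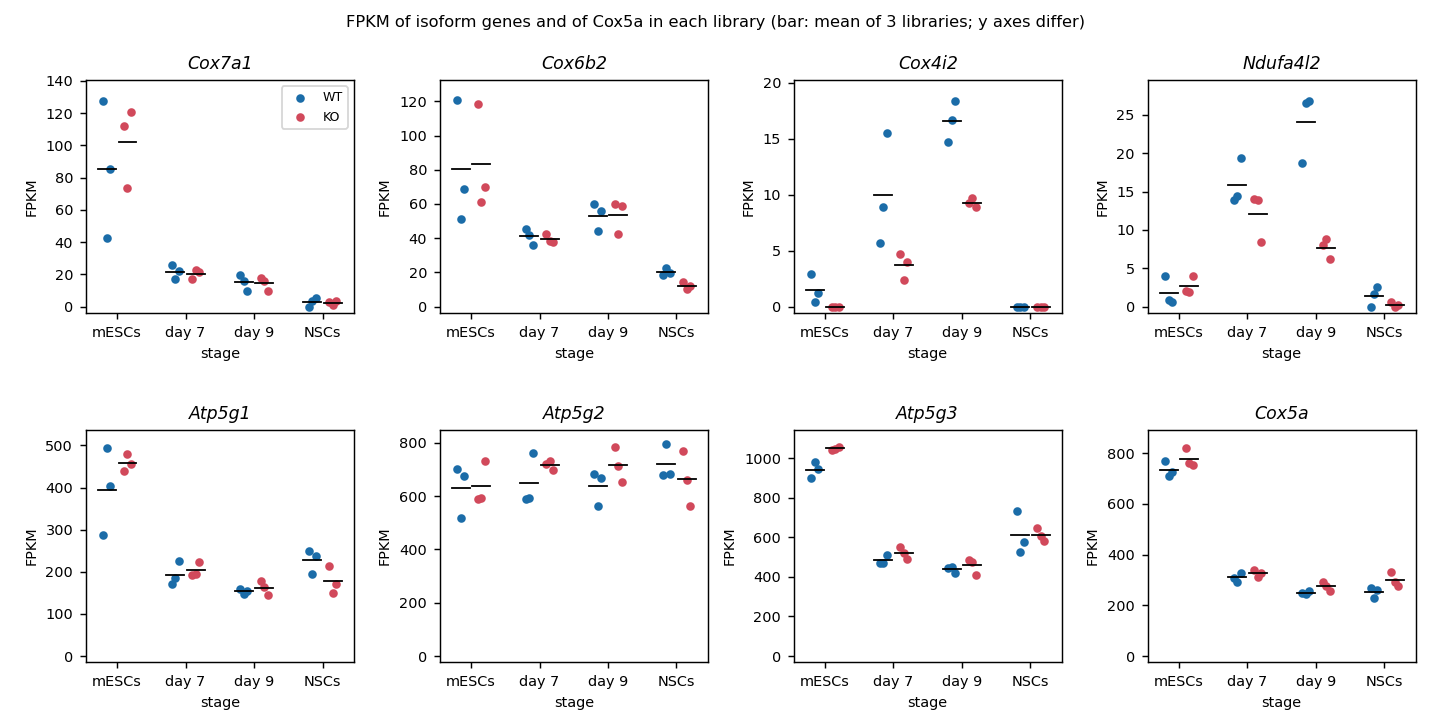
FPKM (y axes, from 0, differing between panels) of 7 isoform genes and of Cox5a in each library at each stage (x axis), WT in blue and KO in red, with a bar at the mean of 3 libraries. Cox7a1 and Cox6b2 are highest in mESCs, Cox4i2 at day 9 in both genotypes, Ndufa4l2 at day 9 in WT and at day 7 in KO, and Atp5g2 stays between 516 and 795 FPKM in WT while Atp5g1 and Atp5g3 fall.

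The remaining restricted isoforms were low in every library. Cox7b2, a testis isoform, stood at 3.94, 3.00 and 4.36 FPKM in WT mESCs and at 0 in all WT NSC libraries. In KO mESCs it stood at 8.24, 5.43 and 6.22 FPKM, above the WT libraries (log2 difference 0.67, limma adjusted p = 0.719). Cox8c, expressed in testis, was at 0.775 to 2.81 FPKM in WT mESCs and 0 in every NSC library of both genotypes. The muscle isoforms Cox6a2 and Cox8b were listed at 0 in all WT mESC libraries, and the highest values in any library were 7.04 and 1.30 FPKM, both in NSCs.

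Of the 3 c-ring genes of the ATP synthase, which encode the same mature protein behind different targeting sequences, 1 held its level in unscaled FPKM. FPKM sums per library were lower at WT day 9 (567499 to 599537) than in WT mESCs (740491 to 772602). Scaling to the same sum would thus raise the day 9 change of that gene, Atp5g2, and its scaled fit is not given here. Atp5g2 stood at 703, 516 and 676 FPKM in WT mESCs, 684, 564 and 666 at day 9, and 680.0, 795 and 683 in NSCs, ranges that overlapped (log2 change 0.02 ± 0.14 at day 9, SE, limma adjusted p = 0.895). Atp5g1 went from 287, 495 and 404 FPKM in WT mESCs to 159, 147 and 156 at day 9, with no overlap, and was at 249.7, 195 and 238 in NSCs (log2 change at day 9 -1.32 ± 0.16, SE, limma adjusted p = 1.85e-07). Atp5g3 went from 899, 983 and 944 FPKM to 446, 452 and 421 at day 9 and 734, 526 and 577 in NSCs, where the fall at day 9 was 1.10 on the log2 scale (limma adjusted p = 2.65e-09) with separate ranges. The share of Atp5g2 in the summed FPKM of all 3 was 32.2% in WT mESCs and 48.8% by day 7. It reached 51.7% at day 9, with 46.3% in NSCs.

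The 4 complex II genes did not move together. Sdha, the flavoprotein that oxidises succinate, went from 135.5, 147 and 137 FPKM in WT mESCs to 84.98, 84.3 and 83.0 at day 9 and 117, 143 and 140.2 in NSCs. It was low at day 9 without overlap (log2 change -0.72 ± 0.08, SE, limma adjusted p = 4.22e-08) and overlapped the mESC range in NSCs. The membrane anchor Sdhd fell similarly at day 9 (log2 change -0.74 ± 0.10, limma adjusted p = 1.47e-06). Its partner anchor Sdhc instead stood at 136, 97.1 and 121 FPKM in mESCs, 146, 143 and 147 at day 9 and 175, 159 and 169 in NSCs. Its day 9 and NSC libraries lay above all mESC libraries, by 0.31 (limma adjusted p = 0.0152) and 0.52 (adjusted p = 0.00021) on the log2 scale, the day 9 call being lost without WT mESC replicate 2 (0.18, adjusted p = 0.140) or with the compared groups fitted alone (0.31, 0.056). The iron-sulfur subunit Sdhb was called higher in NSCs by 0.26 (limma adjusted p = 0.0220), a call lost without WT mESC replicate 2 (0.18, adjusted p = 0.134), WT NSC replicate 2 (0.24, 0.0542) or WT NSC replicate 3 (0.23, 0.0685), and with the compared groups fitted alone (0.26, 0.119).

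In KO cells, too, most called members were lower at day 7 and day 9. At KO day 7, 59 members were called lower and 4 higher than in KO mESCs (31.8% and 29.5% of all tested genes), with a median log2 change of -0.44. At KO day 9, 59 were called lower and 4 higher (35.6% and 35.7% of all tested genes), with a median of -0.50. In KO NSCs 37 were called lower and 8 higher (38.2% and 37.7% of all tested genes), with a median of -0.20 against 0 for all genes. After scaling to the same FPKM sum these medians were 0.29 and 0.44, so the members stayed below all genes. Scaled in that way, 41 members were lower and 8 higher at day 7 (20.9% and 36.1% of all tested genes). Day 9 then gave 41 lower and 12 higher (24.8% and 44.0%), and NSCs 15 lower and 45 higher (24.3% and 52.2%). KO NSCs against KO day 9 gave 34 called higher and 8 lower (27.2% and 32.4% of all tested genes), and after scaling 67 higher and 6 lower (37.2% and 23.2%). WT and KO share no library in these contrasts. At day 9, 54 members were called lower in both, 88.5% of the WT and 91.5% of the KO calls, and the 4 higher ones were shared. Over all tested genes, 88.97% of the WT and 87.65% of the KO lower calls at day 9 were shared, and 87.6% and 89.4% of the higher ones, so the members' lower calls were near that background. In NSCs, 32 lower calls were shared (88.9% of WT and 86.5% of KO calls) and 7 higher ones (70.0% and 87.5%), and 0 members were called in opposite directions. All tested genes gave 90.05% and 90.09% for lower and 90.5% and 88.6% for higher calls in NSCs. For NSCs against day 9, 32 higher calls were shared (71.1% of WT and 94.1% of KO calls) and 5 lower ones (71.4% and 62.5%), where all tested genes gave 84.0% and 76.8% for higher and 81.5% and 76.2% for lower calls. Cox5a fell by 1.49 on the log2 scale at KO day 9, from 821, 759 and 754 FPKM to 293.5, 278 and 258 (limma adjusted p = 1.24e-12). Cox7a1 went from 112, 73.9 and 121 FPKM in KO mESCs to 2.55, 1.14 and 3.27 in KO NSCs, and Atp5g2 stayed between 562 and 784.5 FPKM in all KO libraries.

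KO against WT within each stage asked whether loss of SmcHD1, a chromatin protein known for gene silencing on the inactive X, altered these autosomal genes. Few members differed. In mESCs 0 members were called (0.116% of all tested genes were called higher and 0.413% lower), with 2 members at an unadjusted p under 0.05. At day 7, 1 was called lower and 0 higher (2.50% and 1.18% of all tested genes). At day 9, 1 was called lower and 0 higher (4.11% and 2.58%). In NSCs, 2 were called lower and 1 higher (3.48% and 2.54%), while blocking on replicate number gave 5 lower and 2 higher (5.17% and 4.29% of all tested genes). Medians of the members' log2 differences were 0.04 in mESCs, 0.04 at day 7, 0.07 for day 9 cells and -0.04 for NSCs, where those of all genes lay between 0.00 and 0.01. After scaling to the same FPKM sum, the members' median at day 9 was -0.04 and that of all genes -0.10, so the members stayed above it. On that scale 3 members were called lower and 0 higher at day 9 (5.75% and 1.69% of all tested genes), and 1 lower and 2 higher in NSCs (2.47% and 2.92%).

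**Figure D4:**
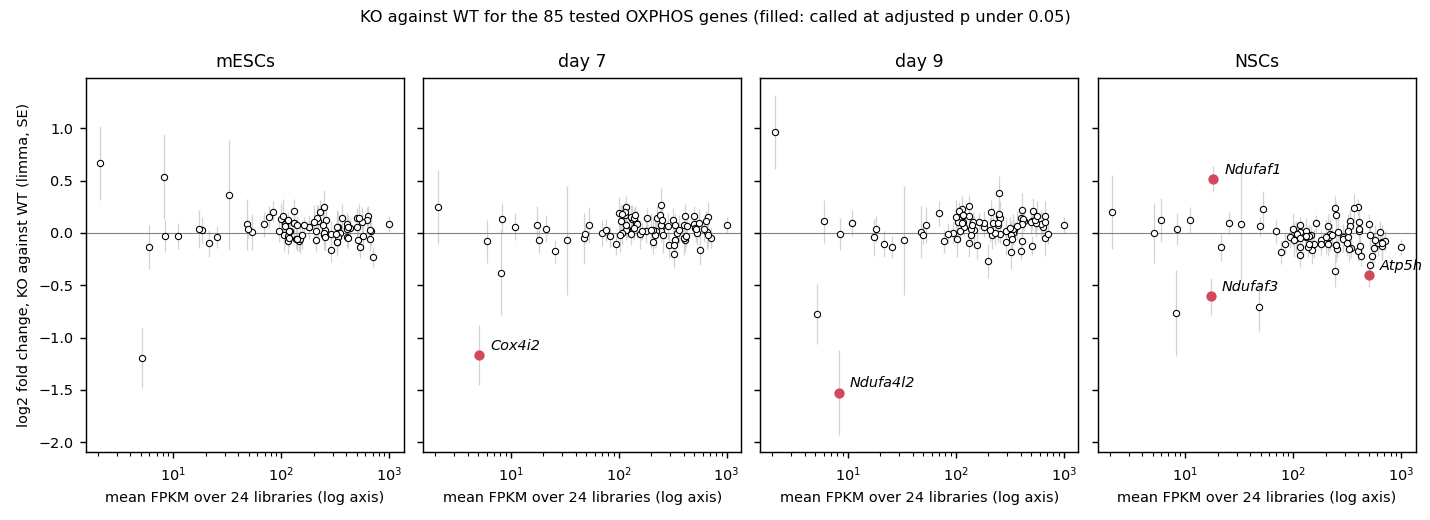
Log2 fold change of KO against WT (limma, y axis, bars are SE) against mean FPKM over the 24 libraries (log axis) for the 85 tested members in mESCs, day 7, day 9 and NSCs; filled points were called. The 5 called points are Cox4i2 at day 7, Ndufa4l2 at day 9 and Ndufaf1, Ndufaf3 and Atp5h in NSCs, and the last of these lies among the members of high mean FPKM.

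Both members called in differentiating cells were the isoforms highest in WT day 9 cells. Cox4i2 stood at 4.74, 2.38 and 3.95 FPKM in KO day 7 cells against 5.68, 8.88 and 15.5 in WT. All KO libraries were below all WT libraries, the closest by less than 1 FPKM (log2 difference -1.17 ± 0.29, SE, limma adjusted p = 0.0202). The call was lost without WT day 7 replicate 2 (-1.20, adjusted p = 0.0683) or 3 (-0.83, 0.169) and without KO day 7 replicate 2 (-0.95, 0.128) or 3 (-1.22, 0.0536), with a pseudocount of 0.1 (-1.35, 0.120) and with the compared groups fitted alone (-1.17, 0.106), and the range over all alternatives was 0.00326 to 0.169. In mESCs it was listed at 0 in all KO libraries and stood at 0.390 to 2.93 FPKM in WT (limma adjusted p = 0.0665), and at day 9 it stood at 9.23, 9.70 and 8.88 FPKM in KO, all below the WT libraries of 14.7 to 18.4 (log2 difference -0.77, adjusted p = 0.131). Ndufa4l2 stood at 8.03, 8.78 and 6.14 FPKM at KO day 9 against 18.7, 26.5 and 26.8 in WT. The genotypes did not overlap (log2 difference -1.53 ± 0.41, SE, limma adjusted p = 0.0251). This call was lost without WT day 9 replicate 2 (-1.45, adjusted p = 0.109) or 3 (-1.44, 0.0997), without KO day 9 replicate 1 (-1.56, 0.0743) or 3 (-1.39, 0.0987), with the replicate number as a block (-1.53, 0.0848) and with a pseudocount of 0.1 (-1.63, 0.421), over a range of 0.00148 to 0.421.

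Markers of other cell types moved with genotype at the same stages. They are given as sums over each list, with no count of calls, because several markers passed the filter on low values only through the group where they are high. The 7 endoderm markers summed to 61.0 to 152 FPKM in WT and 1.18 to 4.58 in KO day 7 libraries, and at day 9 to 28.2 to 54.0 and 4.70 to 14.6. Afp was at 0 in all WT day 7 libraries. The 7 mesoderm markers summed to 67.9 to 177 FPKM in WT and 7.74 to 8.58 in KO at day 7, and to 25.96 to 67.5 and 17.25 to 21.1 at day 9. Both sums were thus lower in KO at both stages without overlap, though not every marker followed. At day 9, means were higher in KO for Cer1 (1.67 FPKM in WT, 2.79 in KO), Tbx6 (1.28, 1.37) and Mixl1 (0, 0.176). Foxa2 (36.9, 5.23) made up most of the endoderm sum there, and T (21.1, 6.14) differed most among the mesoderm markers. The sum of the 6 neuronal markers was higher in KO at day 7 (112 to 151 FPKM in WT, 153 to 183 in KO) and lower in KO at day 9 (527 to 585 against 266 to 373), again without overlap. At day 7 this came mainly from Tubb3 (means of 47.1 FPKM in WT, 80.6 in KO) and Elavl3 (3.08, 6.86). Isl1, Neurod1 and Stmn2 had lower means in KO at day 7. The 8 muscle and heart markers summed to 16.2 to 19.5 FPKM in WT and 10.55 to 11.2 in KO at day 7, and to 10.4 to 31.4 and 4.71 to 6.885 at day 9. The 12 hypoxia-response genes gave 0 calls between genotypes by limma at any stage (3 at an unadjusted p under 0.05 at day 9), with a median log2 difference of -0.29 at day 9. The part of these markers in the Cox4i2 and Ndufa4l2 differences was not tested.

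In NSCs the called members were 2 assembly factors and a stalk subunit. Ndufaf1, which helps assemble the membrane arm of complex I, stood at 10.7, 13.3 and 15.6 FPKM in WT and 17.1, 18.6 and 21.7 in KO. Every KO library was above every WT library (log2 difference 0.51 ± 0.12, SE, limma adjusted p = 0.0143), and the call was lost without KO NSC replicate 3 (0.42, adjusted p = 0.102). Ndufaf3, another complex I assembly factor, stood at 13.8, 28.5 and 23.7 FPKM in WT and 14.03, 16.02 and 10.97 in KO. The ranges overlapped through WT replicate 1 (log2 difference -0.61 ± 0.18, SE, limma adjusted p = 0.0464), and the call was lost without WT NSC replicate 2 (-0.40, 0.215) or 3 (-0.53, 0.170) or KO NSC replicate 1 (-0.63, 0.0831) or 3 (-0.47, 0.245), without the filter on low values (-0.61, 0.0606), after scaling to the same FPKM sum (-0.56, 0.0834) and with the compared groups fitted alone (-0.61, 0.450). Atp5h, subunit d of the peripheral stalk of the ATP synthase, stood at 608, 642 and 671 FPKM in WT and 586, 427 and 453 in KO. Its groups did not overlap (log2 difference -0.40 ± 0.11, SE, limma adjusted p = 0.0370), and the call was lost without WT NSC replicate 2 (-0.40, 0.0712) or 3 (-0.37, 0.123) or KO NSC replicate 2 (-0.31, 0.192) or 3 (-0.35, 0.165). With the replicate number as a block, 5 members were called lower and 2 higher in NSCs, where 5.17% of all tested genes were called lower and 4.29% higher. Those added were Cox6b2 (-0.71, adjusted p = 0.00211), Cox6a1 (-0.31, 0.0380) and Atp5g1 (-0.36, 0.0478), and Cox5a higher (0.24, 0.0491), each chosen after its values were seen. With the compared groups fitted alone, 0 of the 3 were called, Ndufaf1 and Atp5h having adjusted p-values of 0.286 and 0.340. The 8 neural stem markers summed to 5700 to 7289 FPKM in WT and 4231 to 5072 in KO NSCs, though Slc1a3 and Olig2 had higher means in KO. The 7 endoderm markers summed to 0 to 0.176 and 1.59 to 4.00 FPKM, while mesoderm, neuronal and muscle and heart sums overlapped. The part of these markers in the NSC differences was not tested.

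Whether the KO difference itself changed with stage was tested as an interaction with mESCs. By limma 0 of the 85 members were called for day 7 (0.661% of all tested genes higher and 1.02% lower), with 0 at an unadjusted p under 0.05. For day 9 there were 0 calls (1.32% and 1.35% of all tested genes) and 1 at an unadjusted p under 0.05, Ndufa4l2 (-2.07 ± 0.58, SE, limma adjusted p = 0.0653). For NSCs there were 0 calls (1.14% and 1.12% of all tested genes) and 10 at an unadjusted p under 0.05, among them Atp5h (-0.45, limma adjusted p = 0.169), Ndufaf1 (0.49, 0.177) and Ndufaf3 (-0.64, 0.225). With the replicate number as a block, 2 members were called lower in the NSC interaction (1.97% of all tested genes), namely Atp5g1 (-0.61 ± 0.15, SE, limma adjusted p = 0.0372) and Cox6b2 (-0.79 ± 0.16, adjusted p = 0.0172). In the fit without the block, the 5 members called between genotypes were not shown to differ from mESCs in their KO effect.

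Other genes of mitochondrial biology were read from lists, against the 35.1% of all tested genes called lower and 36.4% higher at WT day 9. Of 15 tested genes of the citric acid cycle and pyruvate dehydrogenase, which feed electrons to the chain, 14 were called lower and 0 higher at WT day 9 (median log2 change -0.56), including Pdhb (-1.29) and Idh3a (-1.15). Of 76 mitochondrial ribosomal proteins, which make the mitochondrially encoded subunits, 58 were called lower and 5 higher (median -0.59), with Mrps24 at -2.13 and Mrpl1 at -1.56. Genes for mitochondrial translation and protein import were called lower in 16 of 19 cases (median -1.01), among them Phb (-1.57) and Tomm40 (-1.51). Of 8 outer membrane, carrier and mass markers 6 were called lower, led by the channel gene Vdac1 (-1.49). The 26 tested assembly factors that are not members gave 10 called lower and 5 higher (median -0.19), from Cox17, a copper chaperone for complex IV (-1.24), to Sdhaf1, which helps assemble complex II (1.18). Regulators of mitochondrial biogenesis were called lower in 10 of 15 cases (median -0.62). Esrrb fell furthest, from a mean of 204 FPKM in WT mESCs to 5.66 at WT day 9, followed by Gabpa (-1.43). Ppargc1a did not reach the minimum mean and was not tested. Its means went the other way, from 0 FPKM in WT mESCs to 0.651 at WT day 9 and 3.44 in WT NSCs. In WT NSCs against day 9, 11 of the citric acid cycle genes were called higher and 1 lower, while the ribosomal proteins split into 19 higher and 10 lower, where 24.8% of all tested genes were called higher and 30.3% lower. Between genotypes in NSCs, 8 of the 76 ribosomal proteins were called lower in KO and 1 higher (3.48% and 2.54% of all tested genes).

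Of the members that are no OXPHOS subunits, Atp5sl and Cox4nb were called lower at WT day 9 (log2 changes -0.94 and -0.61) and in WT NSCs. Atp5sl, at 13.8, 17.9 and 17.8 FPKM in WT mESCs and 5.39, 5.23 and 4.84 in WT NSCs, showed no overlap (log2 change -1.50 ± 0.13, SE, limma adjusted p = 4.53e-10). Cox4nb was called lower in WT NSCs by a smaller step (log2 change -0.34, limma adjusted p = 0.0214). Atp5s was called in 0 of the WT stage contrasts from mESCs, with log2 changes of -0.17, -0.13 and -0.07 at day 7, day 9 and in NSCs.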

How the data were processed

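The authors made the deposited FPKM values with Cufflinks and Cuffdiff after trimming with Trim Galore and alignment with TopHat2 to mm9, having removed rRNA reads and reads on the X. The library normalization and strand setting of Cuffdiff are not given in the sources used here, and the single-end libraries came from a stranded mRNA kit. There are no counts, so read intervals cannot be given, but 96.7% of 31400 low values lay within 5% of a whole multiple of 1 read. A further 12 FPKM columns of no sample here were not used.

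Differences were fitted with limma 3.58.1 in R 4.3.3 (moderated, trend and robust options, statmod 1.5.0) on log2(FPKM + 1) of all 24 libraries in 8 groups, for 12105 genes outside X and Y with a mean of at least 1 FPKM, with Benjamini-Hochberg adjustment over all of them and calls at an adjusted p under 0.05. A fold change on this scale understates that of low genes. The procedure was checked on simulated data. Members and lists were chosen with earlier results of these data known. Named with values were members called between genotypes, the largest called rise and fall to WT NSCs and the highest and lowest mean FPKM in each complex, the isoform sets with Cox6c and the single-copy Cox5a and Cox5b beside them, and the Sdh genes; others are said to be picked afterwards. From the lists of assembly factors, biogenesis regulators, citric acid cycle, mitochondrial ribosome, translation and import, outer membrane, hypoxia response and cell type markers, counts and up to 2 examples are given.

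Replicate numbers come from the labels. Deviations of same-numbered WT and KO libraries correlated at 0.142 to 0.435 in mESCs and 0.184 to 0.335 in NSCs, so they may be paired there. The main fit has no replicate block and leaves such pairing out, and the block was fitted as an alternative. At day 7, day 9 and between stages not every pair passed 0.1. Alternatives were a pseudocount of 0.1, no filter (18156 genes), scaling to the same FPKM sum, the replicate block, the compared groups alone and each library left out.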

Additional observations from a re-analysis of the deposited data

How the results depend on the processing

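Most counts and medians kept their direction and size under the alternatives, and those that did not are given here. Scaling to the same FPKM sum gave medians of -0.22, -0.16 and 0.29 in WT and -0.22, -0.22 and 0.29 in KO for day 7, day 9 and NSCs against mESCs, with 9, 15 and 44 members called higher and 39, 32 and 13 lower in WT, and 8, 12 and 45 higher and 15 lower (NSCs) in KO. For KO NSCs against day 9 it gave 67 higher and a median of 0.46, and between genotypes 3 lower at day 9 (median -0.039) and 2 higher and 1 lower in NSCs, with -0.064 for the day 9 interaction. The same scaling turned the WT day 9 changes of Atp5h to 0.091, Cox5b to 0.11 and Ndufa7 to 0.020 and the WT NSC change of Uqcrc2 to 0.031. A pseudocount of 0.1 gave 1 lower in mESCs, 0 lower at day 7, 1 higher and 0 lower at day 9, and 1 higher in the day 9 and NSC interactions. Without the filter 1 was lower in NSCs. Fitting the compared groups alone gave 0 lower at day 7, 1 higher and 2 lower at day 9, 0 higher and 0 lower in NSCs, and 6 higher for WT NSCs against mESCs. The replicate block gave 2 higher and 0 lower at day 9, 2 higher and 5 lower in NSCs and 2 lower in the NSC interaction, and changed no other count of calls by over 1.5 times. At day 9 the replicate numbers did not pair the libraries. Leaving out each library in turn gave 0 to 1 lower between genotypes in mESCs (1 without WT mESC replicate 2), day 7 and day 9, 0 to 2 higher and 0 to 4 lower in NSCs (most without WT NSC replicate 1), 0 to 1 lower in the day 9 interaction (1 without WT mESC replicate 1), 0 to 1 higher (1 without WT mESC replicate 2) and 0 to 3 lower (3 without WT NSC replicate 1) in the NSC interaction, 6 to 15 higher for WT NSCs against mESCs (6 without WT mESC replicate 2, 15 without WT mESC or WT NSC replicate 1), 2 to 4 higher for KO day 7 (2 without KO day 7 replicate 2), a median of -0.30 to -0.17 for KO NSCs against mESCs (-0.30 without KO NSC replicate 1), and 5 to 9 lower with a median of 0.13 to 0.25 for KO NSCs against day 9 (5 without KO day 9 replicate 1, 0.13 without KO day 9 replicate 3). The cause of these differences was not tested. With 3 libraries a group and values without counts, the precision of differences between genotypes is limited, and FPKM cannot show a change in total RNA per cell.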
